A study of Mus musculus with 2 samples.

Results

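Type I interferon response genes are the genes that cells switch on when interferon alpha or beta binds its receptor. The list examined here has 39 genes, and a gene was kept if it had a row in both matrices and at least 20 unique molecular identifiers (UMIs, each marking a captured transcript) over the T cells of both libraries. Of the 39 genes, 38 had a row and 37 reached 20 UMIs, out of 12166 genes that reached it in all. Oasl1 fell outside with 16 UMIs and is given only by its counts, Oasl2 stood just inside with 46, and Mx1 is not analysed here. The study profiled CD4 T cells of the visceral fat (VAT, adipose tissue around organs of the abdomen) of mice in 2 droplet single-cell libraries, which count transcripts at their 3′ ends.

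The WT library comes from C57BL/6 wild-type mice and the CD27_KO library from CD27-/- mice, which lack the costimulatory receptor CD27. Both hold cells sorted as TCRb+ CD4+ out of the stromal vascular fraction, which is what remains of the tissue once fat cells are removed. The labels speak of 10 pooled mice without saying whether that is per library, enter C57BL/6 as the genotype of both, and give no age or treatment. The title of each sample was therefore used to assign its group. Cd27 itself had 2072 UMIs in the WT and 15 in the CD27_KO T cells, a log2 ratio of -7.43 (-8.27 to -6.71), so the titles match the transcript.

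After filtering and removal of dendritic, B, macrophage and stromal cells and of an unnamed cluster of 16 WT cells led by Tyrobp and Cd209d, 6202 WT T cells with 15830023 UMIs and 6791 CD27_KO T cells with 19810374 UMIs remained. The median T cell held 1930.5 UMIs and 827 genes in WT and 2201 UMIs and 1001 genes in CD27_KO. Ribosomal protein transcripts made up 32.2% of WT and 27.7% of CD27_KO UMIs. The median gene had a log2 ratio (CD27_KO over WT) of 0.17, and ratios of the interferon genes are set beside that value. The libraries shared 12 barcodes, all in T cells. With 1 library of pooled mice per group there is no test between genotypes, and every interval below is an exact 95% interval for counting error only; for a count of 0 the limit given is 3 counts. Levels are in CPM, a gene's UMIs scaled to the total UMIs of the same cells.

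Interferon alpha and beta signal through the receptor chains Ifnar1 and Ifnar2 and the kinases Jak1 and Tyk2 to a transcription factor complex that includes Stat2 and Irf9. That complex binds a short DNA element, the interferon-stimulated response element, in the promoters of its target genes. The products degrade or sequester viral RNA, sense nucleic acids, attach the ubiquitin-like protein Isg15 to other proteins, and damp the signal itself. CD4 T cells carry the receptor, and tonic interferon keeps a low level of many of these genes in resting lymphocytes.

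The element has the core TTTCNNTTTC, or GAAANNGAAA when read on the opposite strand. These letters were searched on both strands in RefSeq promoters of build GRCm38.p6, from 250 bases before to 50 bases after each start. Of the 31 genes of the list with a promoter in that table, 17 held a match, against 3.99% of 27025 genes. The stretches below are a choice of those with a match, from genes named in the results and from adjacent gene families. Dtx3l, Lgals3bp and Cmpk2 held no match. Usp18 and Ifi27l2a had no promoter in that table and were not searched. Each stretch is written 5′ to 3′ on the gene's strand, and capitals mark the match nearest before the start site. Ifit3 and Ifit3b, from the same block of chromosome 19, differ at 0 of 44 bases. Ifi208 and Ifi213 also differ at 0 bases, and Ifi206 differs from them at 1.
Isg15 (4:156200858-156200901, minus strand): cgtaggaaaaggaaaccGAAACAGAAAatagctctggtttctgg
Ifit1 (19:34640787-34640830, plus strand): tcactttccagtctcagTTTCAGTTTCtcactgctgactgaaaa
Ifit3 (19:34583390-34583433, plus strand): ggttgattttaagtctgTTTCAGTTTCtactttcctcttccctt
Ifit3b (19:34607786-34607829, plus strand): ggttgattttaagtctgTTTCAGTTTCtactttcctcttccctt
Ifit1bl1 (19:34602046-34602089, minus strand): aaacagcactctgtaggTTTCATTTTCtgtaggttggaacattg
Rsad2 (12:26456546-26456589, minus strand): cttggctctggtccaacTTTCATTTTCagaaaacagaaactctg
Ifi206 (1:173491332-173491375, minus strand): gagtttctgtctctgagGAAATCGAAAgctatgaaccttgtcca
Ifi208 (1:173673590-173673633, plus strand): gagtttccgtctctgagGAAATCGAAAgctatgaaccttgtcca
Ifi213 (1:173599319-173599362, minus strand): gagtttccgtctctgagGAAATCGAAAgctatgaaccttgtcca
Slfn8 (11:83020832-83020875, minus strand): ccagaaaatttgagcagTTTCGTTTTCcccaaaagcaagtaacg
None of these 10 stretches overlaps its gene as annotated in GENCODE. The matching stretches of Ifi203 and Slfn5, which are not shown, do overlap theirs. A match describes the letters in this window and is not a measured binding site.

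A small number of T cells expressed several classical antiviral genes together. A cell was called strongly responding if it had UMIs of at least 3 of the core genes Ifit1, Ifit1bl1, Ifit3, Ifit3b, Rsad2, Cmpk2 and Oasl1, 7 genes in all. This held for 13 of 6202 WT T cells, 0.210% (0.112 to 0.358), and for 32 of 6791 CD27_KO T cells, 0.471% (0.323 to 0.665). The share was 2.25 times as high in CD27_KO (1.15 to 4.67). The gap rests on few cells and on how they are called. Thinning each cell to 1300 UMIs, which left out 536 WT and 54 CD27_KO cells, gave 4 and 16 cells and a ratio of 3.36 (1.09 to 13.8). Thinning to 2000 UMIs gave 7 of 2925 and 15 of 4025 cells and a ratio of 1.56 (0.598 to 4.51). In a stricter set of cells, with 1000 genes or more and no more than 5% mitochondrial UMIs, the counts were 10 of 2034 and 19 of 3372, a ratio of 1.15 (0.507 to 2.76). With Isg15 and Usp18 added to the core, 40 and 59 cells were called, a ratio of 1.35 (0.887 to 2.07). Strongly responding cells were also deeper, with medians of 3218 UMIs in WT and 2477 in CD27_KO against 1928 and 2200 in the other T cells. The part of depth in the difference was not tested further.

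**Figure D1:**
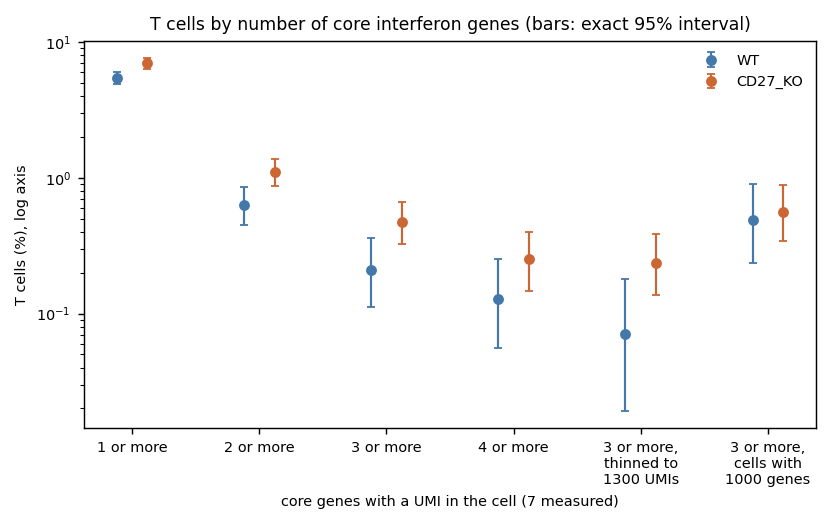
Share of T cells with UMIs of at least 1, 2, 3 or 4 of the 7 measured core interferon genes, as a percentage on a log axis, with the 3-gene rule repeated after thinning and in cells with at least 1000 genes. Points are the libraries and bars are exact 95% intervals; the 3-gene shares of 0.210% in WT and 0.471% in CD27_KO lie closer together in cells with at least 1000 genes, at 0.492% and 0.563%.

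These cells were found in many of the T cell states. States are clusters built without any gene of the list and without 112 further interferon genes, so that none of these genes defined them. Strongly responding cells could therefore not form a state of their own through those genes. With interferon genes kept in the clustering, a cluster of 38 WT and 65 CD27_KO T cells formed, led by Ifit1, Ifit3 and Rsad2. Strongly responding cells were found in 8 of 14 states in WT and in 11 of 14 in CD27_KO. In CD27_KO they were 7 of 981 cells in cluster 5, 6 of 577 in cluster 4 and 5 of 1758 in cluster 0. These clusters have no type name and are described with the states below. In WT, cluster 5 held 3 of 120. Cells of cluster 5 were deep, with medians of 4226 UMIs in WT and 4745 in CD27_KO. Th2-like cells held 1 of 282 in WT and 0 of 1110 in CD27_KO, which allows a share of up to 0.270%. A median strongly responding cell had 44 UMIs of the list in WT and 46 in CD27_KO, against 4 and 5 in other T cells. One of the 32 CD27_KO cells carried a barcode that also occurs in the WT library, and leaving out all shared barcodes gave 13 and 31 cells.

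How much each gene was concentrated in these cells is described next; a core gene was judged in cells called by 3 of the other 6 core genes, so that it did not choose its own cells. Of the 35 genes that had 100 UMIs or more, 34 were 3-fold or more and 12 were 10-fold or more higher in strongly responding than in other T cells. Among all genes with 100 UMIs, 2.76% passed 3-fold and 0.236% passed 10-fold. The lower end of the interval was above 1-fold for all 35, against 5.58% of all genes. The median over all 37 was 7.16-fold, beside 1.12-fold for all genes with 100 UMIs. The cells were chosen by interferon genes, so these figures describe which genes go together in single cells and test nothing.

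The IFIT proteins, which grip viral RNA with foreign ends, led the order. Ifit3b was 206-fold (116 to 366), Ifit3 123-fold (86.5 to 173) and Ifit1 89.6-fold (70.9 to 112) higher. Ifit1bl1, from the same block of 4 genes on chromosome 19, stood lower at 17.9-fold (11.7 to 26.3). Rsad2 makes a nucleotide that ends viral RNA chains, and it was 114-fold (80.1 to 161) higher. Its neighbour Cmpk2, which supplies the nucleotide precursor, was 25.5-fold (15.2 to 40.5) higher. Isg15 was 19.5-fold and Usp18, which removes Isg15 from proteins and inhibits the receptor, 20.7-fold higher. Slfn5, a member of the Schlafen family of growth regulators, reached 15.8-fold (13.2 to 18.8), whereas its neighbour Slfn1 reached 3.11-fold (2.41 to 3.94).

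Other genes were less concentrated in these cells. Ifi27l2a, an interferon-inducible gene of the ISG12 family, was 2.93-fold (2.67 to 3.21) higher, and strongly responding cells held 1.47% of its UMIs in WT and 1.57% in CD27_KO. Ifi203, a nucleic acid binding protein of the Ifi200 family, was 3.36-fold (2.92 to 3.85) higher, and the transcription factor Irf9 was 3.46-fold (2.16 to 5.26) higher. By contrast, strongly responding cells held 21.8% of the Ifit3 UMIs in WT and 42.9% in CD27_KO. For Rsad2 these shares were 19.6% and 41.5%, and for Ifit1 17.3% and 27.3%, again in cells called by the other core genes. Such shares depend on the threshold: over both libraries they rose beyond their counting interval for 30 of 37 genes with 2 core genes and fell below it for 33 with 4. Of the genes with a RefSeq promoter, 8 of 11 at 10-fold or more and 9 of 19 between 3- and 10-fold held a match to the letters of the response element.

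**Figure D2:**
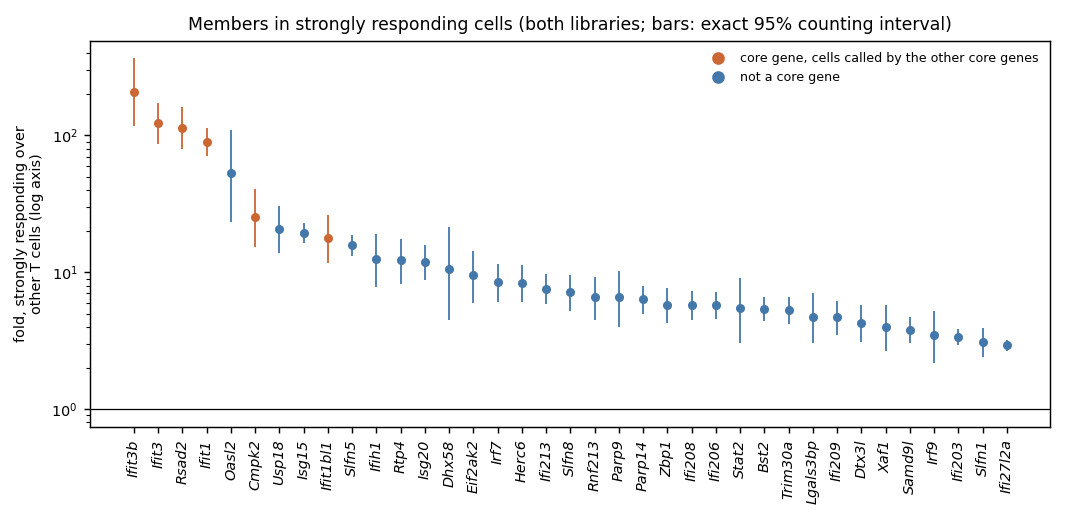
Fold difference of each gene between strongly responding and other T cells, both libraries together, on a log axis; bars are exact 95% counting intervals and the line marks 1-fold. Genes run from Ifit3b at 206-fold to Ifi27l2a at 2.93-fold, and core genes, judged in cells called by the other core genes, are in orange.

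Genes outside the list that were most raised in the same cells were mostly interferon targets as well. Of the 10 with the largest ratio, 7 are in the interferon lists used here: Cxcl10 (28.5-fold, 24.0 to 33.6), Gm4951 (17.6-fold), Iigp1 (13.7-fold), Ifitm3 (13.6-fold), Ifit2 (12.6-fold), Oas3 (11.9-fold) and Parp12 (11.8-fold). Cxcl10, a chemokine that attracts Th1 cells, was uneven, with UMIs in 17 of the 45 cells and up to 42 in 1 cell. Gm47242, Gm4841 and Hmgn3, the other 3, rest on 7 or 8 UMIs each, and Gm4951 and Parp12 likewise on 9 and 8 UMIs.

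Over all T cells, 6 of the 35 genes with at least 100 UMIs were 1.5-fold or more higher in CD27_KO, where 7.02% of 9757 genes were. None of the 35 was 1.5-fold lower, where 2.83% of genes were. The median log2 ratio of the 37 genes was 0.31 (quartiles 0.18 and 0.43), beside 0.17 for all 12166 genes. The interval lay above 0 for 26 genes, below 0 for Ifi27l2a and Irf7, and spanned 0 for 9, where 38.3% of all genes lay above and 9.93% below. Intervals narrow as counts rise, and the genes behind these shares were not matched for counts. Set against the median gene at 0.17 in place of 0, the interval lay above it for 14 genes and below it for 4. Relative to the median gene, Usp18 and Rsad2 alone stayed 1.5-fold higher, where 3.39% of genes did, and none was lower, where 4.27% were. On that scale 28 of the 37 ratios were positive. The summed level of all listed genes was 2473 CPM in WT and 2568 in CD27_KO, and without Ifi27l2a, which took 39.4% and 30.4% of those UMIs, it was 1500 and 1788 CPM, a log2 ratio of 0.25 (0.23 to 0.28).

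**Figure D3:**
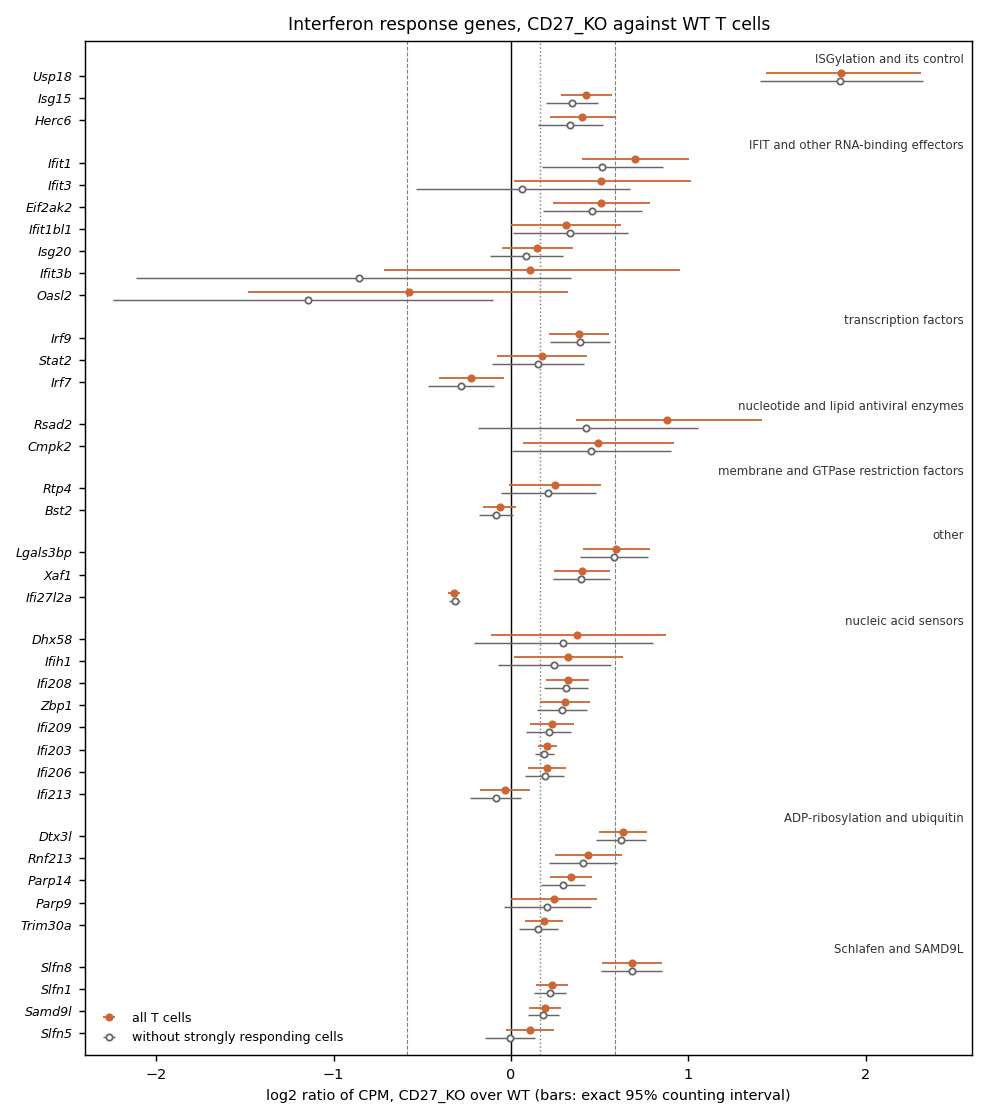
log2 ratio of CPM, CD27_KO over WT, for the 37 genes ordered by role, over all T cells (filled) and without strongly responding cells (open). Bars are exact 95% counting intervals, the dotted line is the median of all genes at 0.17 and the dashed lines mark 1.5-fold; Usp18 stands alone at 1.86, Ifi27l2a and Irf7 lie below 0, and the open points of Ifit3, Ifit3b, Rsad2 and Oasl2 sit left of the filled ones.

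Usp18 differed most between the libraries. It had 55 UMIs in 49 WT cells and 250 UMIs in 216 CD27_KO cells, which is 3.47 CPM (2.62 to 4.52) and 12.6 CPM (11.1 to 14.3). The 2 intervals do not overlap, and the fold was 3.63 (2.70 to 4.96). After thinning each cell to 1300 UMIs, 0.335% of WT and 1.51% of CD27_KO cells had a Usp18 UMI. Strongly responding cells held 5 of the WT and 25 of the CD27_KO UMIs, and the log2 ratio was 1.86 with them and 1.85 without them. With equal state shares the Usp18 ratio was 1.46, its lowest value under the alternatives. Isg15, the substrate of Usp18, had 41.3 CPM in WT and 55.5 CPM in CD27_KO, and its log2 ratio of 0.43 (0.28 to 0.57) was smaller. It became -0.0068 when every state was given the same share in both libraries. Herc6, the ligase that attaches Isg15 in mice, had 25.3 and 33.4 CPM, a log2 ratio of 0.40 (0.22 to 0.58).

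Usp18 lies at 121245906 to 121270917 on chromosome 6 (mm10), 3.96 Mb from Cd27, the gene that was knocked out. Among 72 genes with at least 100 UMIs within 5 Mb of Cd27, 9.72% were 1.5-fold higher and 13.9% lower in CD27_KO, with a median of 0.06. Over all genes with 100 UMIs, 7.02% were higher and 2.83% lower. The nearest measured genes on either side, Pex26 and Slc6a13, had log2 ratios of 0.10 (-0.39 to 0.61) and 0.35 (-0.24 to 0.96). Bid was at 0.03 (-0.30 to 0.35), Mical3 at -1.28 (-1.92 to -0.66), Klrg1 at -0.50 (-0.59 to -0.41) and M6pr at 0.30 (0.20 to 0.41). The part of position in the Usp18 difference was not tested.

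Among the RNA-binding effectors, Ifit1 had 8.78 CPM in WT and 14.2 in CD27_KO, a log2 ratio of 0.70 (0.40 to 1.0) that was 0.51 (0.18 to 0.86) without strongly responding cells. Ifit3 had 3.47 and 4.95 CPM, and its ratio went from 0.51 (0.02 to 1.01) to 0.06 (-0.54 to 0.67) without them. Ifit3b, at 1.45 and 1.57 CPM, went from 0.11 to -0.86 (-2.11 to 0.34), a span that still includes 0. Oasl2, an oligoadenylate synthetase-like protein with 25 and 21 UMIs, was at -0.58 (-1.48 to 0.32) and -1.14 (-2.25 to -0.10) without them. The latter ratio rests on 23 WT and 13 CD27_KO UMIs, and with equal state shares the ratio over all T cells was 0.58, so no direction is given for Oasl2. Eif2ak2, the kinase that halts translation on double-stranded RNA, had 11.0 and 15.6 CPM and was at 0.51 (0.24 to 0.79). Isg20, an exonuclease, was at 0.15 (-0.05 to 0.35). Oasl1 had 5 UMIs in WT and 11 in CD27_KO.

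Rsad2 had 2.91 CPM in WT and 5.35 in CD27_KO, from 46 and 106 UMIs. Its log2 ratio was 0.88 (0.37 to 1.41) over all T cells, 0.42 (-0.19 to 1.05) without strongly responding cells and -0.11 without the 1% of cells per library with the most UMIs of the list. The corresponding value of Usp18 without the same cells was 1.99. Cmpk2 had 4.67 and 6.56 CPM, a log2 ratio of 0.49 (0.07 to 0.92), and -0.039 with equal state shares.

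The 3 transcription factors had different ratios. Irf9, part of the complex that binds the response element, had 29.6 CPM in WT and 38.5 in CD27_KO, a log2 ratio of 0.38 (0.21 to 0.55). Stat2, its partner, was at 0.17 (-0.08 to 0.43), level with the median gene. Irf7, which amplifies interferon production and is itself an interferon target, had 30.1 and 25.7 CPM, a log2 ratio of -0.22 (-0.41 to -0.04). Stat2 ends in a stretch that is at least 97% identical to the ends of 4 other genes, so its counts are less certain.

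The nucleic acid sensors had small positive ratios, Ifi213 excepted, and some were level with the median gene. Relative to that gene, Ifi203 and Ifi206 were at 0.03, Ifi209 at 0.06 and Ifi213 at -0.21. Zbp1, Ifi208, Ifih1 and Dhx58 were between 0.13 and 0.20 on that scale. The ratios that follow are not relative to the median gene. Ifi203 had 315 CPM in WT and 364 in CD27_KO and a log2 ratio of 0.21 (0.15 to 0.26). Its neighbours on chromosome 1 were at 0.20 (Ifi206), 0.32 (Ifi208), 0.23 (Ifi209) and -0.04 (Ifi213, -0.18 to 0.11). Ifi208 and Ifi213 share near-identical transcript ends with each other, Ifi203 with Mndal and Ifi209 with Ifi214, so UMIs may be divided between them unevenly. Zbp1, a sensor of left-handed nucleic acid, had 42.8 and 52.8 CPM and was at 0.30 (0.16 to 0.45). The RNA helicases Ifih1 and Dhx58 were at 0.32 (0.02 to 0.63) and 0.37 (-0.11 to 0.87).

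Among genes of ADP-ribosylation and ubiquitin, Dtx3l stood apart. This ubiquitin ligase had 41.8 CPM in WT and 64.7 in CD27_KO, a log2 ratio of 0.63 (0.49 to 0.77) that was 0.62 without strongly responding cells. Parp9, its binding partner, is encoded next to it on the opposite strand with overlapping ends of the genes, and was at 0.24 (0.00 to 0.48). Parp14 was at 0.34 (0.22 to 0.46), Rnf213 at 0.43 (0.25 to 0.62) and Trim30a, which shares its transcript end with Trim30d, at 0.18 (0.08 to 0.29).

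Of the Schlafen genes, Slfn8 had 27.2 CPM in WT and 43.6 in CD27_KO, a log2 ratio of 0.68 (0.51 to 0.85), which was 0.68 (0.51 to 0.85) without strongly responding cells. Slfn1 was at 0.23 (0.14 to 0.32) and Slfn5 at 0.11 (-0.03 to 0.24). Samd9l, an inhibitor of translation and of growth, was at 0.19 (0.10 to 0.28). Lgals3bp, a secreted galectin-binding glycoprotein, had 22.4 and 33.8 CPM, a log2 ratio of 0.59 (0.40 to 0.78). Without strongly responding cells it was 0.58, just under 1.5-fold. Xaf1, which promotes cell death, was at 0.40 (0.24 to 0.56).

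Bst2, which tethers budding virus to the cell surface, had 105 CPM in WT and 100.3 in CD27_KO, a log2 ratio of -0.06 (-0.16 to 0.03). Bst2 also marks plasmacytoid dendritic cells, and a cluster of these in the sort, 55 WT and 26 CD27_KO cells, was left out of the T cells; it held 2038 and 2693 CPM of Bst2. The other 9 markers of that cell type summed to 55.5 CPM in WT T cells and 74.4 in CD27_KO T cells, of which Runx2 alone made up 29.8 and 37.9 CPM. The markers did not all go 1 way: Siglech had 2 WT and 11 CD27_KO UMIs, Ly6d had 21 and 2, and Klk1 had 2 and 2. The part of plasmacytoid dendritic cells in the levels of Bst2 was not tested. Rtp4, a chaperone of membrane receptors that acts against viruses, was at 0.25 (-0.01 to 0.51).

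Ifi27l2a ran against the list. It had 973 CPM in WT and 779 in CD27_KO, a log2 ratio of -0.32 (-0.35 to -0.29), the lowest among the genes with 100 UMIs. It became -0.02 when every state was given the same share in both libraries. After thinning, 51.0% of WT and 43.9% of CD27_KO cells had an Ifi27l2a UMI.

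Without the strongly responding cells, the median ratio of the list lay closer to that of all genes. The median log2 ratio of the 37 genes became 0.24, beside 0.17 for all genes. Of the 33 genes that then had 100 UMIs, Usp18, Slfn8 and Dtx3l were 1.5-fold higher, where 6.93% of genes were, and none was lower, where 2.83% were. These 3 had log2 ratios of 1.85, 0.68 and 0.62. The removed cells held 0.333% of WT and 0.676% of CD27_KO UMIs.

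T cells were divided into 14 states, 10 of which had at least 100 cells in each library. Named by markers, these were naive or central memory-like cells (1309 WT and 316 CD27_KO cells), Th1-like (787 and 228), NK receptor-like (296 and 126), Treg-like (1314 and 471) and Th2-like (282 and 1110). The others stay unnamed and are given by their leading genes: cluster 0 (P2rx7, Trerf1 and Lyst; 169 and 1758 cells), cluster 4 (Il18r1, Slamf6 and Ccl5; 750 and 577), cluster 5 (Furin, Samd11 and Bhlhe40; 120 and 981), cluster 6 (Slamf6 and Gpm6b; 698 and 321) and cluster 8 (Bcl2a1b, Bhlhe40 and Nr4a3; 182 and 563). Since their shares differ strongly between libraries, ratios over all T cells mix states in different proportions. With a common mix of states in both libraries, the median ratio of the list was 0.30, beside 0.09 for all genes with 100 UMIs. On that common mix, 7 genes were 1.5-fold higher and 0 lower, where 4.14% and 1.77% of genes were.

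Within 8 of the 10 states the median of the list lay above that of all genes. Each state median covers only the listed genes with at least 20 UMIs in that state, from 22 in NK receptor-like cells to 35 in clusters 4 and 5. The median log2 ratio was 0.47 in Treg-like cells (all genes 0.10), 0.40 in cluster 6 (0.12), 0.39 in naive or central memory-like cells (0.14), 0.31 in NK receptor-like cells (0.07) and in cluster 0 (0.03), and 0.26 in cluster 4 (0.07). It was 0.21 in Th2-like cells (0.08) and 0.18 in Th1-like cells (-0.01). In clusters 5 and 8 it was 0.06 in both, below the 0.09 of all genes. Of the 35 genes with 100 UMIs, 18 had a higher CPM in CD27_KO in at least 8 of the 10 states, where 21.1% of all genes did. Dtx3l, Slfn8 and Ifi209 had the higher CPM in all 10. Usp18 did in 9; in cluster 0 it had 0 WT UMIs, where 3 UMIs would be 10.4 CPM, and 7.23 CPM in CD27_KO, so no direction can be given there.

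The Treg-like class was made of different cells in the 2 libraries. Cluster 3, led by Cxcl2, Areg and Il10, held 1115 of its WT and 216 of its CD27_KO cells, and cluster 9, led by Foxp3 and Ctla4, held 199 and 255. Within cluster 3 the median ratio of 32 listed genes was 0.33 (all genes 0.08), and within cluster 9 that of 25 was 0.22 (0.15). The summed level without Ifi27l2a was 1358 and 1688 CPM in cluster 3, and 1845 and 2008 in cluster 9. Cluster 9 was the higher of the 2 in both libraries, and the ratio of the whole class lay above that of either cluster.

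**Figure D4:**
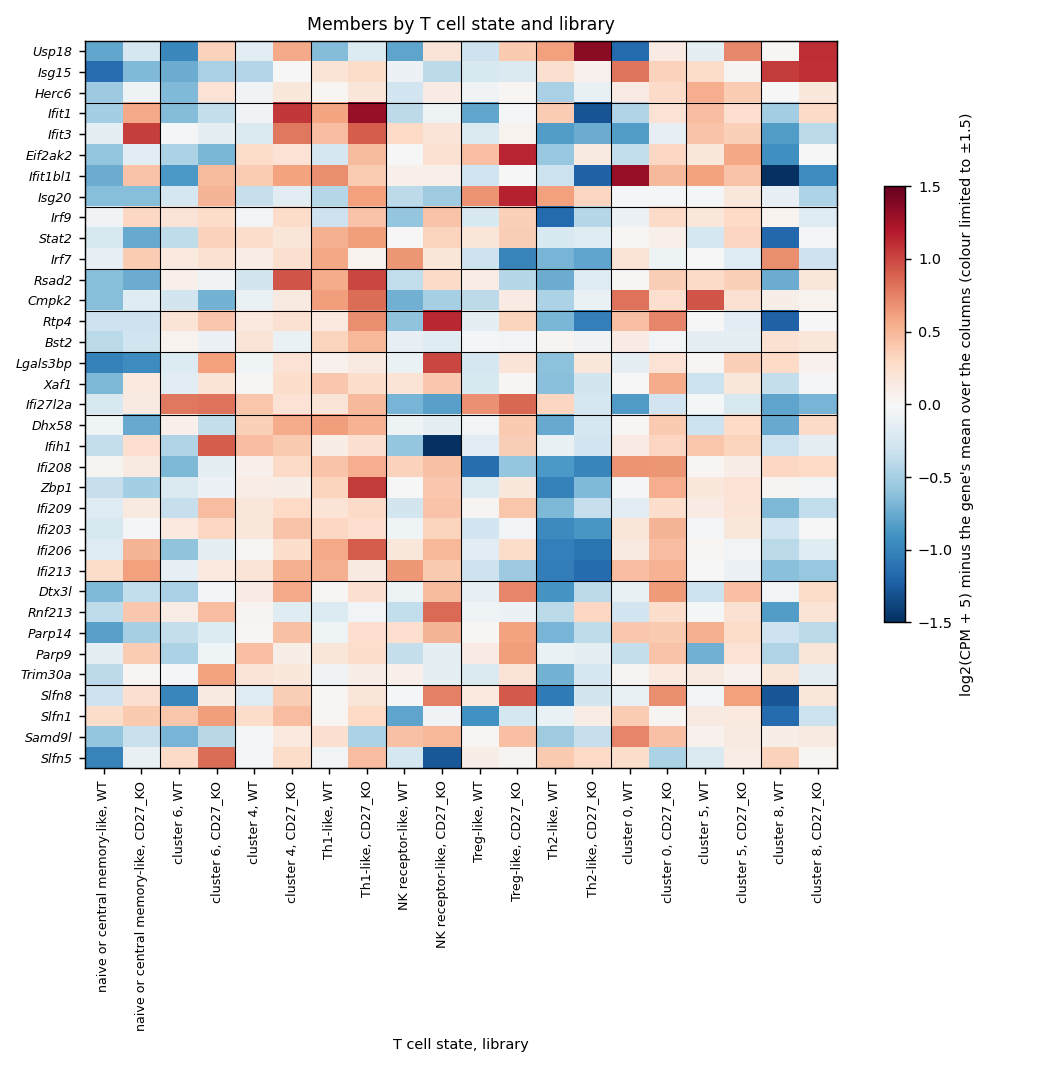
Level of the 35 genes with at least 100 UMIs in 10 T cell states and both libraries, as log2(CPM + 5) minus the mean of the gene over the 20 columns, with colour limited to 1.5 in either direction. Th2-like columns are blue for the Ifi200 genes and Zbp1 in both libraries and red for Usp18 in CD27_KO.

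Much of the list was low in Th2-like cells. Against the other T cells of the same library, the median log2 ratio was -0.46 in WT and -0.62 in CD27_KO, beside -0.03 and -0.17 for all genes. Of the genes with 100 UMIs in a library, 14 of 30 were 1.5-fold lower in WT, where 17.7% of all genes were, and 17 of 33 in CD27_KO, where 15.6% were. The summed level without Ifi27l2a was 1093 CPM in WT and 1228 CPM in CD27_KO Th2-like cells, the lowest of the 10 states in both libraries. Ifi203 shows this plainly, with 170 CPM (142 to 203) in WT and 181 CPM (166 to 197) in CD27_KO Th2-like cells. Its level in the other 9 states was between 270 and 415 CPM in WT and between 326 and 480 in CD27_KO, and none of those intervals reached the Th2-like ones. Zbp1 was at 20.3 and 27.2 CPM in Th2-like cells and at 59.5 and 101 CPM in Th1-like cells.

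Usp18 ran the other way. Its level was 12.2 CPM (5.56 to 23.1) in WT and 23.6 CPM (18.4 to 29.8) in CD27_KO Th2-like cells. These were the highest values of the 10 states in both libraries. The WT value rests on 9 UMIs. Its interval overlaps those of all other compared WT states except cluster 6 and naive or central memory-like cells. The rank of Th2-like cells in WT is therefore not settled. Cluster 8 of CD27_KO followed with 19.3 CPM (12.1 to 29.2), whose interval overlaps that of Th2-like cells. Then came cluster 5 with 13.5 (10.6 to 17.0) and cluster 4 with 11.7 (7.05 to 18.3). The CD27_KO intervals of cluster 6 and NK receptor-like cells also overlap that of Th2-like cells. Naive or central memory-like cells had 1.52 CPM (0.41 to 3.90) in WT and 4.44 (0.92 to 13.0) in CD27_KO. Within single states the interval of the ratio lay above 0 in Treg-like cells (1.27, 0.20 to 2.32), cluster 4 (1.24, 0.14 to 2.38) and cluster 6 (3.59, 0.54 to 9.11). In Th2-like cells the ratio was 0.96 (-0.05 to 2.14).

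Isg15 was highest in cluster 8, with 108 CPM (74.9 to 151) in WT and 112 CPM (93.5 to 133) in CD27_KO, and lowest in naive or central memory-like cells, with 19.8 (14.8 to 26.0) and 29.6 (18.1 to 45.7). The interval of its ratio spanned 0 in 9 of the 10 states, and in cluster 4 the ratio was 0.49 (0.04 to 0.94). Ifi27l2a varied more between states than between libraries, from 418 CPM in WT cluster 0 to 1384 CPM in CD27_KO Treg-like cells. It was higher in CD27_KO in cluster 0 (0.57, 0.30 to 0.85) and in naive or central memory-like cells (0.38, 0.24 to 0.51), and lower in Th2-like cells (-0.58, -0.71 to -0.46).

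Th1-like cells stood at the upper end, with a median ratio over other T cells of 0.37 in WT and 0.25 in CD27_KO, beside -0.02 and -0.04 for all genes. The CD27_KO value became -0.044 when interferon genes were kept in the clustering. Naive or central memory-like cells were at -0.50 and -0.13, close to the -0.49 and above the -0.33 of all genes. Slfn8 was higher in CD27_KO with an interval above 0 in 5 of 10 states, among them Treg-like cells, with 34.3 CPM (29.1 to 40.2) in WT and 62.0 (50.5 to 75.2) in CD27_KO. Dtx3l was higher with an interval above 0 in 4 states, with 44.9 CPM (38.9 to 51.5) and 85.0 (71.5 to 100.4) in Treg-like cells.

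The rest of the pathway was read from a list of 62 genes, of which 60 had a row and 46 had 100 UMIs. Of these, 13 were 1.5-fold higher in CD27_KO and 1, Socs3, lower (-0.60, -0.77 to -0.43), by the same rule by which 7.02% and 2.83% of genes were. Genes of type I and type III interferons on the list, Ifnb1, Ifna1, Ifna2, Ifna4, Ifna5, Ifnk, Ifne, Ifnl2 and Ifnl3, had 0 UMIs in the T cells of both libraries, which allows up to 3 UMIs in each. Ifng, the type II interferon made by Th1 cells, had 71.8 CPM in WT and 120 in CD27_KO, a log2 ratio of 0.75 (0.64 to 0.85). The receptor chains were at 0.16 (Ifnar1), 0.18 (Ifnar2), 0.27 (Ifngr1) and -0.07 (Ifngr2), and Il10rb was at 0.03; none of the 5 measured receptors was 1.5-fold apart.

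Irf1, a target of interferon gamma, was at 0.21 and the feedback inhibitor Socs1 at 0.27. Of 15 measured GTPases that interferon gamma induces, 8 were 1.5-fold higher and 0 lower, with a median log2 ratio of 0.63. Many genes of the type I list also respond to interferon gamma, and the part of Ifng in their levels was not tested.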

How the data were processed

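Per the labels' protocols, sorted cells were loaded on a droplet 3′ platform; the sample protocol and the series design name different kit versions. Per the file headers, the deposited matrices are UMI counts made by the authors with Cell Ranger 6.1.1, and per the submitters' processing notes they are on mm10. Aligner settings beyond that are not stated.

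All later steps used Python 3.11.15, numpy 2.4.6, pandas 2.3.3, scanpy 1.11.5, igraph 0.11.9, scipy 1.17.1 and BLAST 2.17.0. Barcodes with under 500 genes or over 10% mitochondrial UMIs were removed (60 of 6398 WT and 40 of 6893 CD27_KO), as were 136 and 62 cells of non-T clusters; no doublet caller was run. Both libraries were clustered together (2000 variable genes, 30 components, 20 neighbours, Leiden resolution 1). A state took the type with the highest median marker ratio, with at least 3 markers 1.5-fold enriched and 2 among its top 10 genes; this rule was set after clusters were seen. Ratios come from summed UMIs, with exact conditional binomial intervals; shares have Clopper-Pearson and levels Poisson intervals. Genes were called at 1.5-fold with 100 UMIs. Every member was named; of the pathway list, receptors, Irf1, Socs1, Socs3 and detected ligands were, and a further gene is not reported here; of other genes, the 10 with the largest ratio in strongly responding cells. The steps were tested on simulated data. Members, lists and rules were chosen with earlier results of these data known, and a share of cells with a UMI has no background cell type here, as every cell type can express these genes.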

Additional observations from a re-analysis of the deposited data

Results flagged for a closer look

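For 5 genes the CD27_KO over WT ratio had an interval above 0 in at least 1 state and below 0 in at least 1 other. The share of all genes that did so was not counted, so the number says nothing particular to the list. Each is given as the gap between the highest and the lowest of these log2 ratios, and the gaps were not tested. Ifi27l2a had 4 such states above 0 and 3 below, and Ifit1 had 3 above and 1 below. Ifi27l2a differed by 1.15 between cluster 0 (0.57, 0.30 to 0.85) and Th2-like cells (-0.58, -0.71 to -0.46).

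Ifit1 differed by 4.86 between naive or central memory-like cells (1.57) and Th2-like cells (-3.29), and 9 of its 12 UMIs in WT Th2-like cells came from 1 cell. Ifit1bl1 differed by 4.67 between cluster 6 (2.32), where it had 4 WT and 10 CD27_KO UMIs, and Th2-like cells (-2.35), where it had 5 and 4. Samd9l differed by 1.18 between Treg-like (0.44) and Th1-like cells (-0.74), with 195 WT and 36 CD27_KO UMIs in the latter. Slfn5 differed by 1.84 between naive or central memory-like cells (1.03) and cluster 0 (-0.82, -1.54 to -0.01).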

How the results depend on the processing

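No paired analysis was possible because each group has 1 library, so the replicate number the labels share pairs nothing, and with 1 library per group depth limits every value to counting error. The count of 6 genes 1.5-fold higher became 2 relative to the median gene, 3 without strongly responding cells, 3 in cells with 1000 genes or more and 1 at 2-fold; it was 8 as a mean over cells, 7 with equal state shares and between 4 and 6 under the others. The median of 0.31 became 0.14 relative to the median gene and lay between 0.22 and 0.36 under the other alternatives. Usp18 was 1.46 or more under each of them. Among the 28 genes with an interval off 0, signs turned for Isg15 (-0.0068), Ifit1bl1 (-0.078) and Cmpk2 (-0.039) with equal state shares, for Ifit1bl1 (-0.058) in cells with 1000 genes or more and for Rsad2 (-0.11) without the top 1% of cells; the cause was not tested. Among the 9 whose interval spanned 0, the sign turned under at least 1 alternative for 7 (Ifi213, Ifit3b, Isg20, Oasl2, Rtp4, Slfn5 and Stat2).

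The share of strongly responding cells, 0.210% in WT and 0.471% in CD27_KO, became 0.629% and 1.10% at 2 core genes or more, 0.129% and 0.250% at 4 or more, 0.0706% and 0.237% thinned to 1300 UMIs, 0.645% and 0.869% with Isg15 and Usp18 added, and 0.547% and 0.944% at 2 or more genes thinned to 2000 UMIs. In cells with 1000 genes or more it was 0.492% and 0.563%, and the log2 ratio of the shares was 0.20 in place of 1.17. Thinning with 2 core genes and leaving out shared barcodes were added after seeing the data.

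State medians moved with the clustering. Treg-like over other WT cells went from -0.06 to 0.17 at resolution 1.5 and 0.16 with 30 neighbours, and Treg-like CD27_KO over WT from 0.47 to 0.23 with 10 neighbours. NK receptor-like over other CD27_KO cells went from 0.13 to 0.41 with 10 neighbours, and naive or central memory-like over other WT cells from -0.50 to -0.30 with 30. With interferon genes kept in the clustering, Th1-like CD27_KO over WT became 0.047, Th1-like over other CD27_KO cells -0.044 and naive or central memory-like CD27_KO over WT 0.21.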
